A study of Mus musculus with 10 samples.

Results

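The thick ascending limb of the loop of Henle and the distal convoluted tubule, which follows it along the nephron, are described here by 10 genes of their transport and its regulation. The genes were taken by name, as a list chosen with earlier results of these data known, and are Umod, Slc12a1, Ptger3, Casr, Slc12a3, Pvalb, Calb1, Slc8a1, Wnk1 and Wnk4. All 10 were found among the 30431 rows of each of the authors' deposited tables, and all 10 averaged at least 1 CPM (reads counted for a row, scaled to library size), as did 15135 rows.

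RNA was sequenced from whole kidneys taken 21 days after birth (postnatal day 21). The DM group held 3 mice with the genotype Pkhd1Cre; Pkd2 F/F; miR-21null, the SM group 3 mice with Pkhd1Cre; Pkd2 F/F, and the WT group 4 mice labelled wild-type. Pkd2 F/F is a floxed Pkd2 gene, cut by Cre in the cells where the Pkhd1 driver is active, which is known mainly for the collecting duct, and a loss of Pkd2, which encodes polycystin-2, gives cystic kidneys. DM and SM share the driver and the floxed gene, and the WT label names neither, so effects of Cre and of Pkd2 loss cannot be told apart against WT. The deposited tables are comparisons of groups, so no value per mouse, no library depth and no overlap of groups can be shown. The depth behind each value is unknown.

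The thick ascending limb reabsorbs salt without water through the sodium-potassium-chloride cotransporter NKCC2 (Slc12a1), the target of loop diuretics. The distal convoluted tubule reabsorbs sodium chloride through the cotransporter NCC (Slc12a3), the target of thiazides, and handles calcium and magnesium. In both segments WNK kinases act through the kinases SPAK and OSR1, which phosphorylate and activate the cotransporters, and a ubiquitin ligase of KLHL3 and CUL3 removes WNK kinases.

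The promoters of Slc12a3 and Umod are shown because one gene was lower in both Pkd2-deleted groups and the other passed the test in neither. Each is the RefSeq window on GRCm38.p6 from 250 bases before to 50 bases after the gene's start, 300 bases in all. Capitals mark the words TATAAA and GTTAAT, searched on both strands. They do not overlap in these windows. The Slc12a3 window lies at chr8:94328958-94329257 on the plus strand, and the Umod window at chr7:119479213-119479512 on the minus strand.
Slc12a3: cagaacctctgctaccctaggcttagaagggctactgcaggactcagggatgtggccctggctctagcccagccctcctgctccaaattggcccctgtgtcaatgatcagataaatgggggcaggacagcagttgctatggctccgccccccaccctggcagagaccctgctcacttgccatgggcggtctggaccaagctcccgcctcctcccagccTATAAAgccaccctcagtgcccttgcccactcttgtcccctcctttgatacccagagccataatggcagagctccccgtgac
Umod: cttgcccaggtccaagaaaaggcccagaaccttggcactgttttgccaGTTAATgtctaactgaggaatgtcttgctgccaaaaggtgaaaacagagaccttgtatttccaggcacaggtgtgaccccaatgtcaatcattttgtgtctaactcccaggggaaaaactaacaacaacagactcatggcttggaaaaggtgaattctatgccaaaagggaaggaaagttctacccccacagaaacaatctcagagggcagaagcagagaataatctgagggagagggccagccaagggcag
RefSeq held a window for 9 of the 10 genes. TATAAA was found for Slc12a3 alone of these 9, starting 32 bases before the gene's start, and in 13.6% of all 32851 windows. GTTAAT was found for Umod alone, starting 202 bases before the gene's start, and in 7.10% of all windows. These matches describe the letters only.

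The microRNA missing in DM mice is shown because its seed, bases 2 to 8 in capitals, sets the words searched in the members' 3′ UTRs.
mmu-miR-21a-5p: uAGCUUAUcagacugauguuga
Words that pair with bases 2 to 8 (ATAAGCT), or with bases 2 to 7 followed by A (TAAGCTA), were searched on the transcript strand in the longest annotated 3′ UTR of each gene. Where ATAAGCT is followed by A, as in Casr, the words overlap, and the capitals there mark ATAAGCT alone. In Slc8a1 they lie at separate sites. They were found in 3 of the 10 genes, Slc12a1, Casr and Slc8a1, and in 12.7% of 12825 protein-coding genes averaging at least 1 CPM. ATAAGCT alone was found in 8.12% of those genes and in the same 3 members. Each stretch below is 27 bases with the word in capitals, from the transcripts of GENCODE M21 on GRCm38. The stretches lie at chr2:125229441-125229467 on the plus strand for Slc12a1, at chr16:36494185-36494211 on the minus strand for Casr, and at chr17:81381145-81381171 and chr17:81378076-81378102 on the minus strand for the sites of Slc8a1.
Slc12a1: gcagcggataATAAGCTtaccctctga
Casr: aagcaaggctATAAGCTacccacctgc
Slc8a1, upstream site: gtggggggaaATAAGCTggtcaaggtc
Slc8a1, downstream site: acccacctctTAAGCTAacccacctct
The 3′ UTR of Slc8a1 was 15586 bases long, against a median of 1195 bases over the genes searched. The expression values of these 3 genes in DM against SM are given with the other members below.

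Both groups of Pkd2-deleted kidneys had lower levels of most of these genes than WT kidneys. In SM against WT, 8 of the 10 genes fell and 0 rose by the authors' deposited table, where a call is an adjusted p under 0.05 by the likelihood ratio test of edgeR. Lower calls made up 6.09% of all rows there and 9.47% of rows averaging at least 1 CPM, and higher calls 7.87% and 12.2%. In DM against WT, 7 of the 10 fell and 0 rose by the authors' deposited table, where lower calls made up 5.92% of all rows and 8.53% of rows averaging at least 1 CPM, and higher calls 7.55% and 11.3%. All 7 were also lower in SM against WT, and the comparisons share the WT mice. The median log2 fold change of the 10 genes was -1.17 in SM against WT and -1.01 in DM against WT, computed from the authors' deposited tables. Over all rows averaging at least 1 CPM it was -0.01 in SM against WT and 0.00218 in DM against WT. In whole kidney, fewer cells of a segment and less RNA per cell cannot be told apart.

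Group levels below are approximate CPM values, computed from the authors' average level and fold changes. They are not scaled to gene length, so they are compared between groups for a gene and not between genes. The error of each log2 fold change is the standard error (SE) implied by its test score, and 95% intervals of folds were computed from it.

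**Figure D1:**
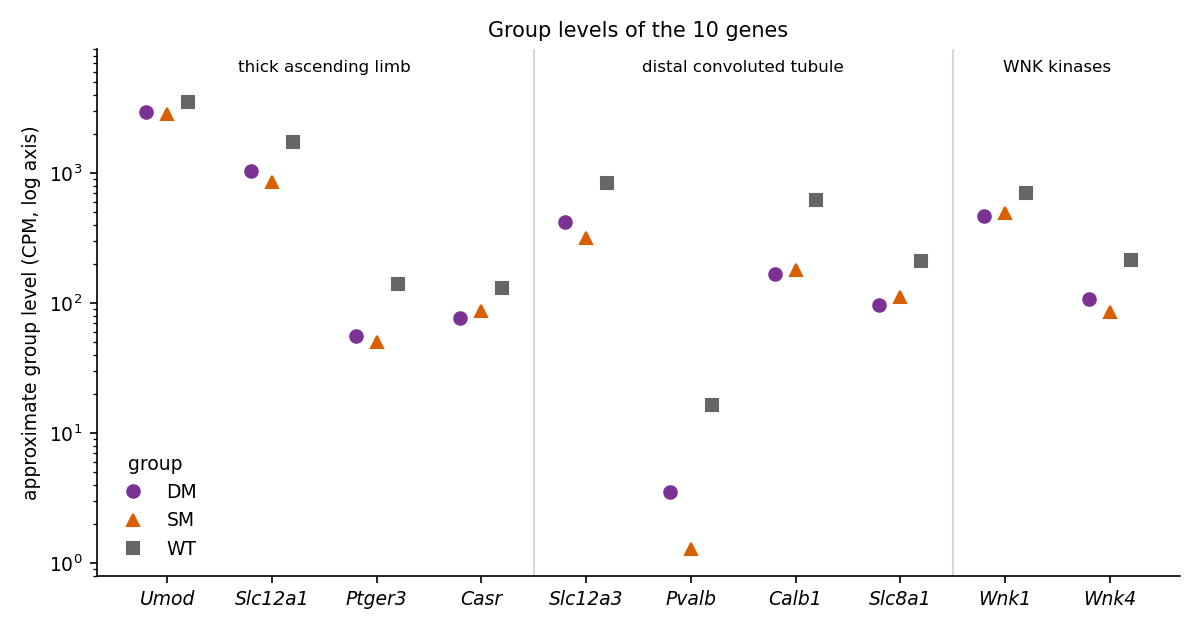
Approximate level of each gene in CPM (log axis) in the DM, SM and WT groups, 1 point per group, computed from the deposited averages and fold changes and therefore without error bars. The WT point is the highest of each gene, and Pvalb spans the widest range, with 3.55 CPM in DM, 1.29 CPM in SM and 16.5 CPM in WT.

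Of the 4 genes of the thick ascending limb, 3 fell in SM against WT and 2 in DM against WT by the authors' deposited tables. Umod encodes uromodulin, the protein this segment secretes into urine, and lies on chromosome 7 at 119462711 to 119479282 (GRCm38, as for all positions below). Its level was about 2981 CPM in DM, 2862 CPM in SM and 3553 CPM in WT. In the authors' deposited table its log2 fold change was -0.31 in SM against WT (SE 0.33, adjusted p = 0.688). The same value was -0.25 in DM against WT by the authors' deposited table (SE 0.33, adjusted p = 0.789). Neither passed, and the 95% intervals of -0.96 to 0.34 and of -0.90 to 0.39 do not exclude a fall of the size seen for Casr.

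Slc12a1 encodes the cotransporter NKCC2 and lies on chromosome 2 at 125152505 to 125230002. It stood at about 1047 CPM in DM, 855 CPM in SM and 1726 CPM in WT. SM kidneys had a 2.02-fold lower level than WT (95% interval 1.30 to 3.14), a log2 fold change of -1.01 by the authors' deposited table (SE 0.32, adjusted p = 0.0176). In DM against WT the authors' deposited table gave -0.72 (SE 0.32, adjusted p = 0.132), which did not pass. The difference between DM and SM was itself tested and is given below.

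Ptger3 encodes the EP3 receptor of prostaglandin E2, which in this segment opposes cAMP signals (chromosome 3, 157566892 to 157645888). Its level was about 56.2 CPM in DM, 50.1 CPM in SM and 141 CPM in WT. That was a 2.83-fold fall in SM (95% interval 2.06 to 3.87) and a 2.52-fold fall in DM (1.84 to 3.44). The authors' deposited tables gave log2 fold changes of -1.50 in SM against WT (SE 0.23, adjusted p = 8.61e-09) and -1.33 in DM against WT (SE 0.23, adjusted p = 4.62e-07). Ptger3 had the lowest log2 fold change of the 4 thick ascending limb genes in both comparisons.

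Casr encodes the calcium-sensing receptor, which lowers salt and calcium transport in this segment when blood calcium is high (chromosome 16, 36493696 to 36562141). Its level was about 77.3 CPM in DM, 87.4 CPM in SM and 131 CPM in WT. The authors' deposited table gave -0.59 in SM against WT (SE 0.20, adjusted p = 0.0269), the smallest change of the 8 genes that passed there. For DM against WT the authors' deposited table gave -0.77 (SE 0.20, adjusted p = 0.00217).

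All 4 genes of the distal convoluted tubule fell in SM against WT and in DM against WT by the authors' deposited tables, with median log2 fold changes of -1.59 and -1.50. Slc12a3, the cotransporter NCC (chromosome 8, 94329201 to 94366214), stood at about 420 CPM in DM, 318 CPM in SM and 846 CPM in WT. Its level was 2.66-fold lower in SM than in WT, with a log2 fold change of -1.41 by the authors' deposited table (SE 0.29, adjusted p = 3.31e-05). In DM it was 2.02-fold lower than in WT (1.37 to 2.96), with a log2 fold change of -1.01 by the authors' deposited table (SE 0.28, adjusted p = 0.00521).

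Pvalb encodes parvalbumin, a calcium-binding protein of the early distal convoluted tubule in mice (chromosome 15, 78191114 to 78206400). It had the lowest log2 fold change of the 10 genes in both comparisons with WT. The level was about 3.55 CPM in DM, 1.29 CPM in SM and 16.5 CPM in WT. SM kidneys therefore had 12.8-fold less than WT kidneys (95% interval 7.25 to 22.6), with a log2 fold change of -3.68 by the authors' deposited table (SE 0.42, adjusted p = 5.16e-16). DM kidneys had 4.64-fold less than WT kidneys (2.76 to 7.81), with a log2 fold change of -2.22 by the authors' deposited table (SE 0.38, adjusted p = 5.00e-07). Pvalb is also a gene of fast skeletal muscle. The 9 skeletal muscle markers summed to about 4.11 CPM in DM, 4.01 CPM in SM and 4.35 CPM in WT, 7 of the 9 averaged below 1 CPM, and their part in the Pvalb values was not tested.

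Calb1 encodes calbindin-D28k, the cytosolic calcium carrier of the late distal convoluted and connecting tubule (chromosome 4, 15881264 to 15908064). Its level was about 169 CPM in DM, 181 CPM in SM and 620 CPM in WT. The authors' deposited tables gave -1.78 in SM against WT (SE 0.39, adjusted p = 1.22e-04) and -1.88 in DM against WT (SE 0.39, adjusted p = 5.12e-05). Slc8a1 encodes the sodium-calcium exchanger NCX1, which moves calcium out of these cells on the blood side (chromosome 17, 81373105 to 81738377). It stood at about 97.0 CPM in DM, 111 CPM in SM and 211 CPM in WT. In the authors' deposited tables its log2 fold change was -0.93 in SM against WT (SE 0.24, adjusted p = 0.00209) and -1.12 in DM against WT (SE 0.25, adjusted p = 1.47e-04). Slc8a1 is also expressed in smooth muscle and heart. The 6 smooth muscle and mural markers summed to about 1005 CPM in DM, 1490 CPM in SM and 505 CPM in WT, and their part in the Slc8a1 values was not tested. Acta2 and Tagln carried much of that sum, while Myh11 stood at about 38.4 CPM in DM, 69.6 CPM in SM and 49.3 CPM in WT.

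The WNK kinases gave 1 call of 2 in each comparison with WT. Wnk4 (chromosome 11, 101260567 to 101277409) stood at about 107 CPM in DM, 85.6 CPM in SM and 215 CPM in WT. SM kidneys had 2.51-fold less than WT kidneys (95% interval 1.89 to 3.32), at an adjusted p of 1.49e-08 by the authors' deposited table. DM kidneys had 2.01-fold less than WT kidneys (1.52 to 2.65), at an adjusted p of 3.64e-05 by the authors' deposited table. Wnk1 (chromosome 6, 119923969 to 120038672) stood at about 468 CPM in DM, 495 CPM in SM and 707 CPM in WT. Its log2 fold changes of -0.52 in SM against WT (adjusted p = 0.268) and -0.60 in DM against WT (adjusted p = 0.173) did not pass by the authors' deposited tables. The SE was 0.28 in both. The Wnk1 row covers the gene as a whole, so the long form found in many cell types and the short kidney form of the distal convoluted tubule cannot be told apart.

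**Figure D2:**
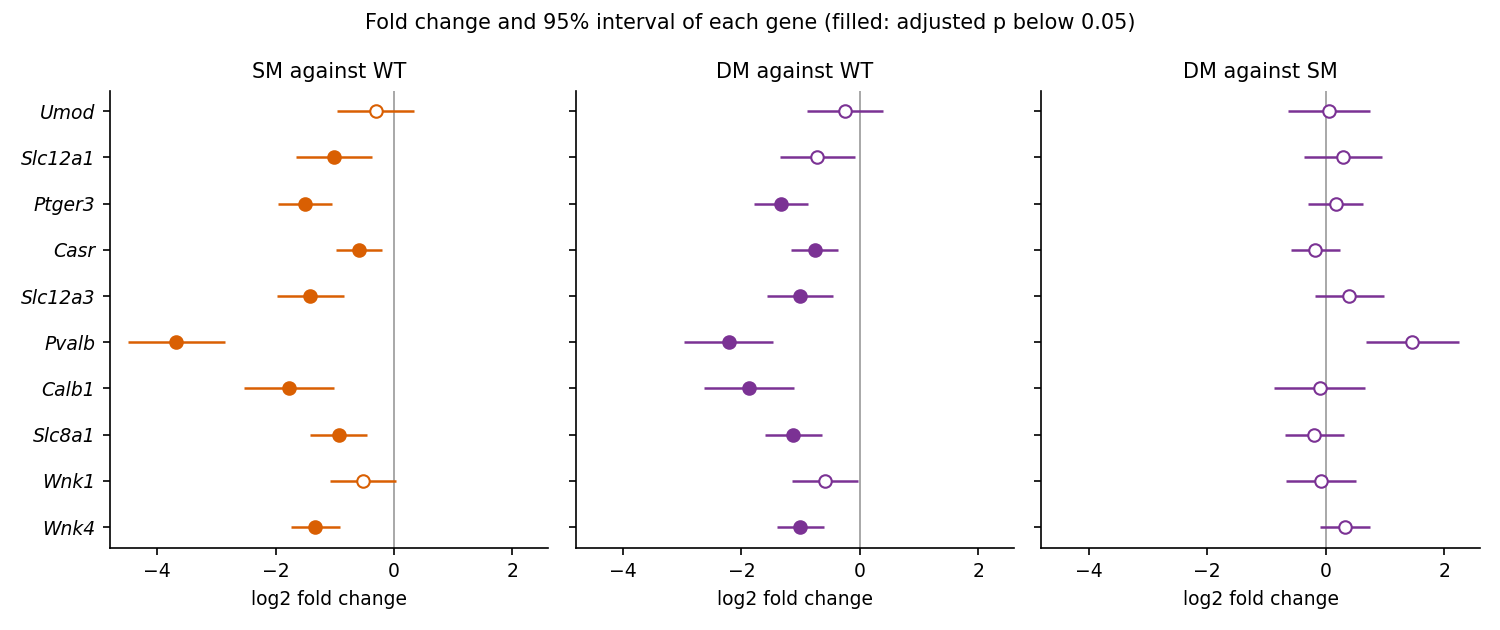
Log2 fold change of each gene (points) with its 95% interval (bars, from the SE) in the comparisons of SM with WT, of DM with WT and of DM with SM. Filled points had an adjusted p below 0.05 by the authors' deposited table, which holds for 8, 7 and 0 of the 10 genes.

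By their labels DM and SM differ in the miR-21 allele. The sequence of miR-21a-5p lies on chromosome 11 at 86584120 to 86584141, and of the members Wnk4 shares that chromosome. Effects of sequence linked to the allele were not tested. In DM against SM 0 of the 10 genes were called by the authors' deposited table (edgeR's likelihood ratio test). There 0.0789% of all rows and 0.0859% of rows averaging at least 1 CPM passed in either direction. At an unadjusted p below 0.05 the count of members was 1, Pvalb. Its level of 3.55 CPM in DM was 2.75 times the 1.29 CPM in SM (95% interval 1.59 to 4.76). In the authors' deposited table this was a log2 fold change of 1.46 (SE 0.40, p = 2.88e-04, adjusted p = 0.175). The value lay at the 99.5th percentile of rows averaging at least 1 CPM. Both levels are low and the spread between mice cannot be seen.

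The other 9 genes lay between -0.19 and 0.40 in DM against SM by the authors' deposited table. Slc12a3 stood at 0.40 there (95% interval -0.18 to 0.98), Wnk4 at 0.32 (-0.10 to 0.74) and Slc12a1 at 0.29 (-0.37 to 0.96). Of the genes with a word for miR-21a-5p, Casr stood at -0.18 (-0.59 to 0.23) and Slc8a1 at -0.19 (-0.69 to 0.31) by the authors' deposited table, and Slc12a1 is given above. Ptger3, Umod, Wnk1 and Calb1 had log2 fold changes of 0.17, 0.06, -0.08 and -0.10 by the authors' deposited table. The 95% interval spans 0 for each of these 9 genes, and that of Slc12a1 reaches 0.96, so the values do not show that DM and SM levels are alike.

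**Figure D3:**
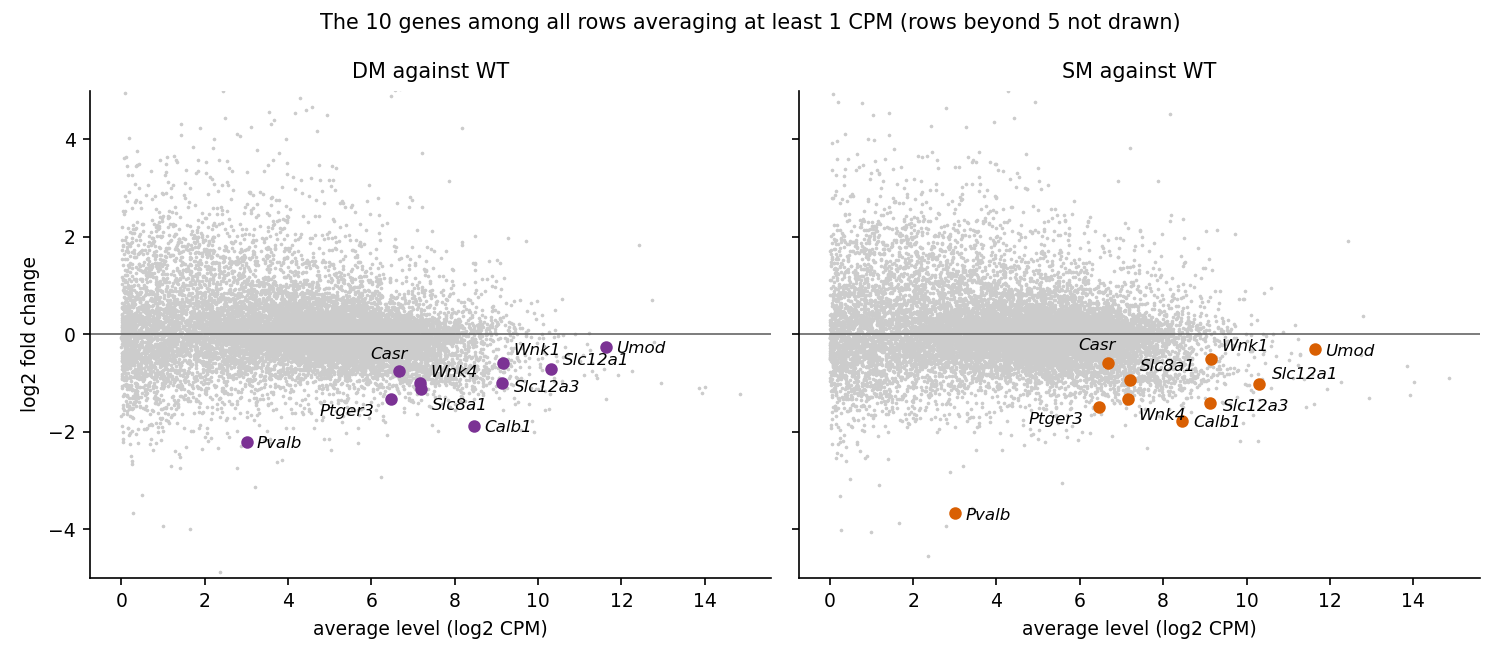
Log2 fold change against the average level (log2 CPM) for all rows averaging at least 1 CPM (grey) and for the 10 genes (coloured), in DM against WT and SM against WT, with 35 and 22 rows beyond the axis limit of 5 not drawn. All 10 genes lie below 0 in both panels, with Umod nearest to 0 and Pvalb lowest.

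Ranked among the 15135 rows averaging at least 1 CPM, from the lowest log2 fold change up, Pvalb stood at the 0.271 percentile in DM against WT and at the 0.106 percentile in SM against WT. Calb1 stood at the 0.581 percentile in DM against WT and at the 0.641 percentile in SM against WT. Umod, at the 28.2 and 26.0 percentiles in the same order, was the member nearest to the middle. The named rows closest to Slc12a3 in the plane of both log2 fold changes with WT were Trim63, Slc5a11 and Tlr12, at distances of 0.03, 0.03 and 0.04 on the log2 scale among 14037 named rows averaging at least 1 CPM. Those closest to Umod were Rasgef1b, Usp20 and Fam108a, at distances of 0.00514, 0.00609 and 0.00703. This likeness rests on 3 groups only.

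Other genes of the same segments had calls in both directions, and the values given for them below are log2 fold changes unless called CPM. Among 13 other thick ascending limb genes, 5 fell and 1 rose in SM against WT, and 7 fell and 1 rose in DM against WT, by the authors' deposited tables. Their median log2 fold change was -0.57 in SM against WT and -0.63 in DM against WT. Calls in either direction made up 14% of all rows and 21.6% of rows averaging at least 1 CPM in SM against WT, and 13.5% and 19.8% in DM against WT. Egf, the growth factor precursor made in this segment and the distal convoluted tubule, stood at -2.18 in SM against WT (SE 0.35, adjusted p = 4.49e-08) and at -1.54 in DM against WT (SE 0.34, adjusted p = 1.98e-04) by the authors' deposited tables. Ppp1r1a, an inhibitor of protein phosphatase 1, stood at -1.51 in SM against WT and -1.41 in DM against WT by the authors' deposited tables, both called. Bsnd, which encodes barttin, stood at -1.20 in SM against WT and -0.85 in DM against WT, both called by the authors' deposited tables. Cldn14, a claudin that limits calcium passage between cells of this segment, rose by 1.53 in SM against WT (adjusted p = 0.019) and by 1.78 in DM against WT (adjusted p = 0.00428) by the authors' deposited tables, at levels of about 1.65 CPM in DM, 1.39 CPM in SM and 0.48 CPM in WT. Cldn16 and Cldn19, which form the calcium and magnesium pore between these cells, had positive values that did not pass (0.42 and 0.36 in SM against WT by the authors' deposited table).

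Among 17 other distal convoluted and connecting tubule genes, 5 fell and 2 rose in SM against WT, and 6 fell and 2 rose in DM against WT, by the authors' deposited tables. The remaining 10 in SM against WT and 9 in DM against WT were not called. Over all 17 the median log2 fold change was -0.38 in SM against WT and -0.39 in DM against WT. Calls in either direction made up 21.6% and 19.8% of rows averaging at least 1 CPM, in the same order. The kallikrein gene Klk1 stood at -2.18 in SM against WT (SE 0.35) and -1.78 in DM against WT (SE 0.34), Emx1 at -1.22 and -0.82, and Fxyd2, the gamma subunit of the sodium pump, at -1.11 and -0.96, all called by the authors' deposited tables. Tmem52b passed at -0.96 in SM against WT and -0.88 in DM against WT, and Sall3, a transcription factor gene, passed at -1.25 in DM against WT with -0.97 in SM against WT not called, by the authors' deposited tables. Trpv5, the calcium channel on the urine side of these cells, rose by 0.79 in SM against WT (SE 0.19, adjusted p = 8.62e-04) and by 0.77 in DM against WT (SE 0.19, adjusted p = 0.00123) by the authors' deposited tables. Hsd11b2, the enzyme that shields the mineralocorticoid receptor from glucocorticoids and is also a collecting duct gene, rose by 1.21 in SM against WT and by 0.85 in DM against WT by the authors' deposited tables. Trpm6, the magnesium channel of the distal convoluted tubule, had values of -0.15 in SM against WT and -0.34 in DM against WT, neither called by the authors' deposited tables.

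The rest of the WNK pathway was called for 1 gene of 10. Lower calls made up 9.47% of rows averaging at least 1 CPM in SM against WT and 8.53% in DM against WT, a similar share. Calls in either direction made up 21.6% and 19.8% of those rows. Of 10 other WNK-SPAK pathway genes, Klhl3 fell, by 1.13 on the log2 scale in SM against WT (SE 0.26, adjusted p = 3.13e-04) and by 1.18 in DM against WT (SE 0.26, adjusted p = 1.57e-04), by the authors' deposited tables. KLHL3 is the part of the ubiquitin ligase that binds WNK kinases. The remaining 9 were not called in either comparison, among them Stk39, which encodes SPAK, at 0.44 in SM against WT and 0.23 in DM against WT, Oxsr1 at 0.06 and 0.12, and Cul3 at -0.10 and -0.18 by the authors' deposited tables. The list's median log2 fold change was -0.10 in SM against WT and -0.00599 in DM against WT.

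**Figure D4:**
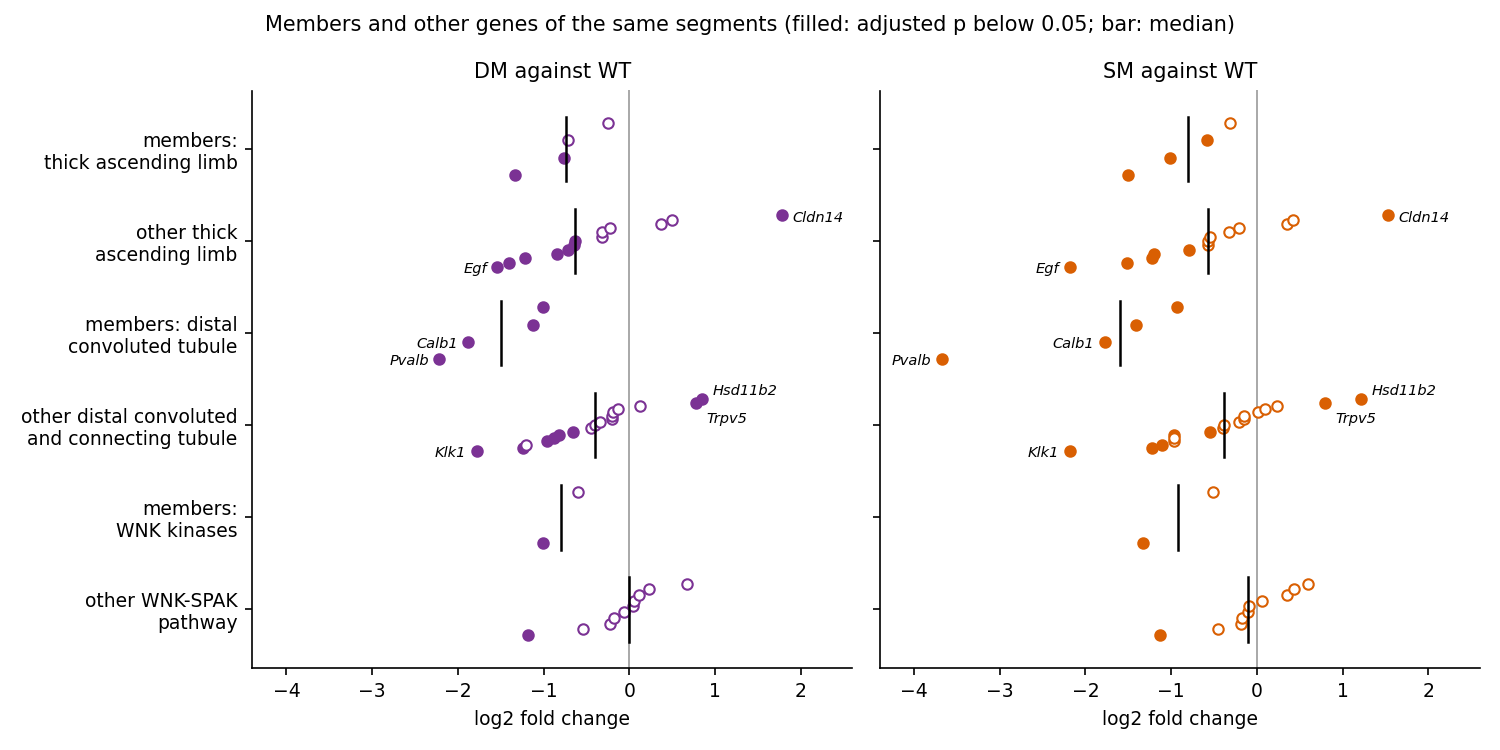
Log2 fold changes of the members and of the other genes of the same segments and of the WNK-SPAK pathway, in DM against WT and SM against WT, 1 point per gene, filled where the adjusted p was below 0.05, with a bar at each list's median. The 4 distal convoluted tubule members are all filled and below 0. The filled points above 0 are Cldn14, Trpv5 and Hsd11b2, and some open points also lie above 0.

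Of 12 close relatives of the members, such as other cation-chloride cotransporters and sodium-calcium exchangers, 0 were called in SM against WT by the authors' deposited table (edgeR's likelihood ratio test, 3 at an unadjusted p below 0.05). Slc12a2, the NKCC1 cotransporter found outside the thick ascending limb, had 0.32 in SM against WT and 0.35 in DM against WT, neither called by the authors' deposited tables. Among 13 prostaglandin, calcium and hormone signalling genes, 2 fell and 2 rose in SM against WT, and 3 fell and 1 rose in DM against WT, by the authors' deposited tables. The median log2 fold change of these 13 was -0.11 in SM against WT and -0.16 in DM against WT. Calls in either direction made up 14% of all rows and 21.6% of rows averaging at least 1 CPM in SM against WT. In DM against WT the shares were 13.5% and 19.8%. Ptger4, the EP4 prostaglandin receptor, rose by 1.05 in SM against WT (SE 0.26, adjusted p = 0.00117) and by 0.87 in DM against WT (SE 0.26, adjusted p = 0.00988) by the authors' deposited tables, while Ptger3, described above, fell. Pth1r, the parathyroid hormone receptor, stood at -0.95 in SM against WT and -0.82 in DM against WT, and Hpgd, which breaks down prostaglandins, at -0.61 and -0.56, all called by the authors' deposited tables. The vitamin D receptor gene Vdr passed in DM against WT at -0.88 and the vasopressin receptor gene Avpr2 in SM against WT at 0.62, by the authors' deposited tables. In DM against SM, 0 of these 65 other genes were called (edgeR's likelihood ratio test), and 1 had an unadjusted p below 0.05, Gp2, a relative of Umod, at 0.72 by the authors' deposited table.

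Markers of other cells also differed from WT, some lists mostly lower like the members and others mostly higher. Their part in the values above was not tested. Of 14 proximal tubule markers, 9 fell and 1 rose in SM against WT and 10 fell in DM against WT by the authors' deposited tables, with summed levels of about 13143 CPM in DM, 11846 CPM in SM and 28278 CPM in WT. Kap, not called in either comparison, held about 5917 CPM of that sum in DM, 4741 CPM in SM and 11798 CPM in WT. Of 8 intercalated cell markers, 3 fell in each comparison, with sums of 505 CPM in DM, 474 CPM in SM and 763 CPM in WT. Principal cell markers of the collecting duct rose for 6 of 8 in SM against WT and 3 of 8 in DM against WT, with sums of 1013 CPM in DM, 1115 CPM in SM and 770 CPM in WT. All 10 tubular injury markers rose in both comparisons, and their sum was 9353 CPM in DM, 9961 CPM in SM and 2583 CPM in WT. Spp1 held most of it, at about 7572 CPM in DM, 7959 CPM in SM and 2124 CPM in WT. Macrophage markers rose for 10 of 10 in SM against WT and 9 of 10 in DM against WT, with sums of 527 CPM in DM, 522 CPM in SM and 142 CPM in WT. Among 10 hepatocyte markers, 7 fell and 1 rose in SM against WT, and 6 fell and 2 rose in DM against WT, with sums of 227 CPM in DM, 198 CPM in SM and 322 CPM in WT. Alb, the albumin gene and a defining gene of liver, stood at about 1.03 CPM in DM, 0.33 CPM in SM and 132 CPM in WT. Ahsg, which encodes the liver protein fetuin-A, stood at about 0.21 CPM in DM, 0.08 CPM in SM and 27.7 CPM in WT. Fga, a fibrinogen gene of the same list, stood the other way at about 106 CPM in DM, 103 CPM in SM and 27.8 CPM in WT. Whether the high WT averages of Alb and Ahsg come from 1 WT kidney or from all 4 cannot be seen. Of the 9 skeletal muscle markers 1 rose in each comparison, and of the 6 smooth muscle and mural markers 4 rose in SM against WT and 2 in DM against WT.

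The calls rest on the deposited likelihood ratio test. Read from an F distribution with 1 and 7 degrees of freedom, the same scores gave adjusted p-values of 0.0592 to 0.182 in SM against WT for Slc12a3, Calb1, Slc8a1, Slc12a1 and Casr, and of 0.0675 to 0.129 in DM against WT for Wnk4, Calb1, Slc8a1, Casr and Slc12a3, and 3 members (Pvalb, Ptger3 and Wnk4) and 2 members (Pvalb and Ptger3) stayed called.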

How the data were processed

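Whole-kidney RNA of 10 mice was sequenced from stranded total RNA libraries, per the labels' protocols. Per the submitters' processing notes, the tools were edgeR 3.2.4, Subread 1.4.6, featureCounts, Cufflinks, TopHat2 2.0.12 and bcl2fastq 1.8.4, with build mm10, and the notes give no roles. Per the file headers, the authors deposited an average level in log2 CPM, a log2 fold change, a likelihood ratio score, a p-value and a false discovery rate for each of 30431 rows, 7155 of them loci without a gene name. Recomputation showed that each deposited false discovery rate equals a Benjamini-Hochberg adjustment across the whole table, and that the 3 tables share a single set of averages.

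From these, with Python 3.11.15, numpy 2.4.6, pandas 2.3.3 and scipy 1.17.1, the implied SE (absolute log2 fold change over the square root of the score), 95% intervals (normal) and group levels were computed. A level takes the deposited average as the mean over the 10 libraries. Calls use the authors' adjusted p below 0.05. The code was tested on simulated data. Libraries, depth and replicate spread were not analysed here. The p-values test a difference between groups against the spread between mice as estimated in the authors' fit of the 10 libraries. The members and the 13 other lists were chosen with earlier results of these data known. All 150 symbols had a row, 2 under an older symbol (Slc8b1 as Slc24a6 and Adgre1 as Emr1). Named genes were all members and, per other list and comparison, called genes of at least 1 CPM with the largest changes, up to 4 per direction. Cldn16, Cldn19, Trpm6, Stk39, Oxsr1, Cul3, Slc12a2, Gp2, Alb, Ahsg, Fga, Acta2, Tagln, Myh11, Kap and Spp1 fall outside that rule. These genes were chosen after their values were seen. Some genes that the rule names are not reported here. The alternatives were a threshold of 0.01, adjustment over rows averaging at least 1 CPM, an F tail and centring on the median row. Of the members, 6 overlap another annotated gene, and no source used here says whether counting used strand. Positions came from GENCODE M21.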

Additional observations from a re-analysis of the deposited data

How the results depend on the processing

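The count of lower members was 8 in SM against WT and 7 in DM against WT. With the F tail it was 3 and 2, since that tail rests on 7 residual degrees of freedom of the 10 libraries alone. With the stricter threshold of 0.01 it was 6 in SM against WT, without Slc12a1 and Casr, and 7 in DM against WT. Adjusting over rows averaging at least 1 CPM, or centring on the median row, kept the call of each member in each of the 3 comparisons. The count of higher members was 0 under each alternative, and no member changed direction where it was called. In DM against SM 0 members were called under each alternative, with 1 at an unadjusted p below 0.05. No paired analysis was possible because the tables hold no values per library. For the same reason, leaving out each replicate in turn was not run. Low levels limit Pvalb in DM and SM and Cldn14 in all groups, and the depth that would give a counting error is unknown.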
